A study of Mus musculus with 24 samples.

Results

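A single library of this series, labelled WT female paclitaxel rep3 and as spinal cord, carried the transcripts of a sensory ganglion, and it is described here against the 11 other WT libraries. It is 1 library of 24 and was chosen by its own values, namely high levels of Scn10a, Mrgprd, Calca and Avil, so every level and ratio of it given here is a description with no test. The series measured RNA of the L4 to L6 segments of the cord from 24 adult C57BL/6J mice, aged 8 to 10 weeks at the start, 3 in each of 8 groups. These groups cross genotype (WT or Chrna7-cKO, a knockout of Chrna7 limited to myeloid cells), treatment (vehicle, or paclitaxel at 1 mg per kg in 4 injections on alternate days) and sex. RNA was extracted 7 days (day 7) from the first injection. The labels do not name the Cre line behind the knockout. The 11 reference cords, all WT, were 3 female vehicle, 3 male vehicle, 3 male paclitaxel and 2 female paclitaxel libraries. The 12 Chrna7-cKO cords served as another reference. No other library had this profile, so for its genes tissue, treatment and animal cannot be told apart.

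A dorsal root ganglion sits on each spinal nerve and holds the cell bodies of sensory neurons, which send a branch to skin, muscle or viscera and another into the cord. Nociceptors, the pain-sensing class, are known for the sodium channels Nav1.8 and Nav1.9 and for either the peptides CGRP and substance P or receptors of the Mrgpr family. Large neurons with myelinated fibres serve touch and body position. Satellite glia wrap the cell bodies and Schwann cells the axons, whereas astrocytes, oligodendrocytes, microglia, motor neurons and inhibitory interneurons belong to the cord.

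The count table held 94765907 counts for this library and 88812295 to 112158154 for the 11 cords, so depth differed little. Levels are CPM, the counts of a gene scaled to the total of its library, and a level under 3 counts, about 0.0317 CPM here, was set to 3 counts before a ratio was formed. A gene was counted if it had at least 10 counts in this library or in at least 6 of the 11 cords, which 24005 genes did. It was called higher if its level lay above the highest cord and was at least 4 times the cord median, and lower if it lay below the lowest cord and was at most 1/4 of that median. Higher were 1704 genes (7.10% of the counted genes) and lower were 2020 (8.41%), and the median log2 ratio over all counted genes was -0.05. A gene that reached the minimum through this library alone, as 1831 did, could hardly lie anywhere but above the cords. The counts and medians of lists given here are therefore over members with the minimum in the cords, without the 4 genes that chose the library. Over the 22174 genes with the minimum in the cords, 4.19% were higher and 9.11% lower, with a median log2 ratio of -0.14. At that limit, Lgals1 was called at 183 CPM against a cord median of 45.8 CPM, and Vwa7 was not at 83.7 CPM against 20.96 CPM. Across 25074 genes, Pearson's r of log2(CPM + 0.5) between this library and a WT cord was 0.937 to 0.940, against 0.994 to 0.998 between any pair of the 23 cords.

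The genes that chose the library, Scn10a, Mrgprd, Calca and Avil, lie apart from every cord by a wide margin. Scn10a (chromosome 9, 119608456 to 119719322), which encodes Nav1.8, had 772 CPM, whereas the 11 cords ran from 0 through a median of 0.0106 to 0.113 CPM. Mrgprd (chromosome 7, 145314835 to 145324086), a receptor of nonpeptidergic nociceptors, had 139 CPM and no count in any of the 11 cords, at least 4340-fold higher than 3 counts in a cord. Avil (chromosome 10, 127000709 to 127020994), the actin-binding protein advillin of sensory neurons, lay at 593 CPM against 0.557 to 0.936 CPM (median 0.747). Calca (chromosome 7, 114631478 to 114636357), the gene of CGRP, lay at 1546 CPM against 24.5 to 44.6 CPM (median 39.2). Calca thus had a base level in the cords, where motor neurons are known to make it, while Scn10a and Mrgprd lay at or near 0 there. The coordinates are those of the GRCm38 annotation in the table.

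The promoters of 3 of these genes are shown because their transcripts mark the tissue. They run from 250 bases before to 50 bases after the RefSeq start (GRCm38.p6), 5′ to 3′ on the strand of the gene. Scn10a lies at chr9:119718983-119719282 on the minus strand, Mrgprd at chr7:145314585-145314884 on the plus strand, and Avil at chr10:127000459-127000758 on the plus strand. Capitals mark matches to TGTGGT, a RUNX core motif, or TAATTA, a homeodomain core motif, searched on both strands.
Scn10a: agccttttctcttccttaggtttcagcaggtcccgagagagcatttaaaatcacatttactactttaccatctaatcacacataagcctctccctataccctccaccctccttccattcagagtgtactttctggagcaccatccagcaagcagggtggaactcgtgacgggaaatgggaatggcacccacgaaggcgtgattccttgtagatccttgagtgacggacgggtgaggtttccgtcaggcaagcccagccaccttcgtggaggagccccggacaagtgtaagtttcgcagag
Mrgprd: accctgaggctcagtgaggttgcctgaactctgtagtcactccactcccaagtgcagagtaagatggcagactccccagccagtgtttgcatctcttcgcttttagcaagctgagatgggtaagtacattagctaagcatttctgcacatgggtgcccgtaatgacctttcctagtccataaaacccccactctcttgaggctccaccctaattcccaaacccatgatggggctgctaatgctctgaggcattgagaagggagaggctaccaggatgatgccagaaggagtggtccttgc
Avil: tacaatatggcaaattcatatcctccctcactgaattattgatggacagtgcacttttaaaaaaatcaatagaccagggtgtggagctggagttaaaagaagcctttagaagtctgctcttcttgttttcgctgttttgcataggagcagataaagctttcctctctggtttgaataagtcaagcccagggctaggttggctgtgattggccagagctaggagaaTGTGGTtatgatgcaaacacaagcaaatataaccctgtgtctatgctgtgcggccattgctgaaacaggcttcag
Avil held 1 match, to TGTGGT at base 226 of the window, and Scn10a and Mrgprd held none of either. Over all 32817 promoters of this length in the RefSeq table, 16.8% held TGTGGT and 5.30% held TAATTA. Of the 16 promoters that matched 15 of the 17 genes of the shared sensory neuron list, 2 held TGTGGT and 1 held TAATTA. A match says only that these letters stand in the window.

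**Figure D1:**
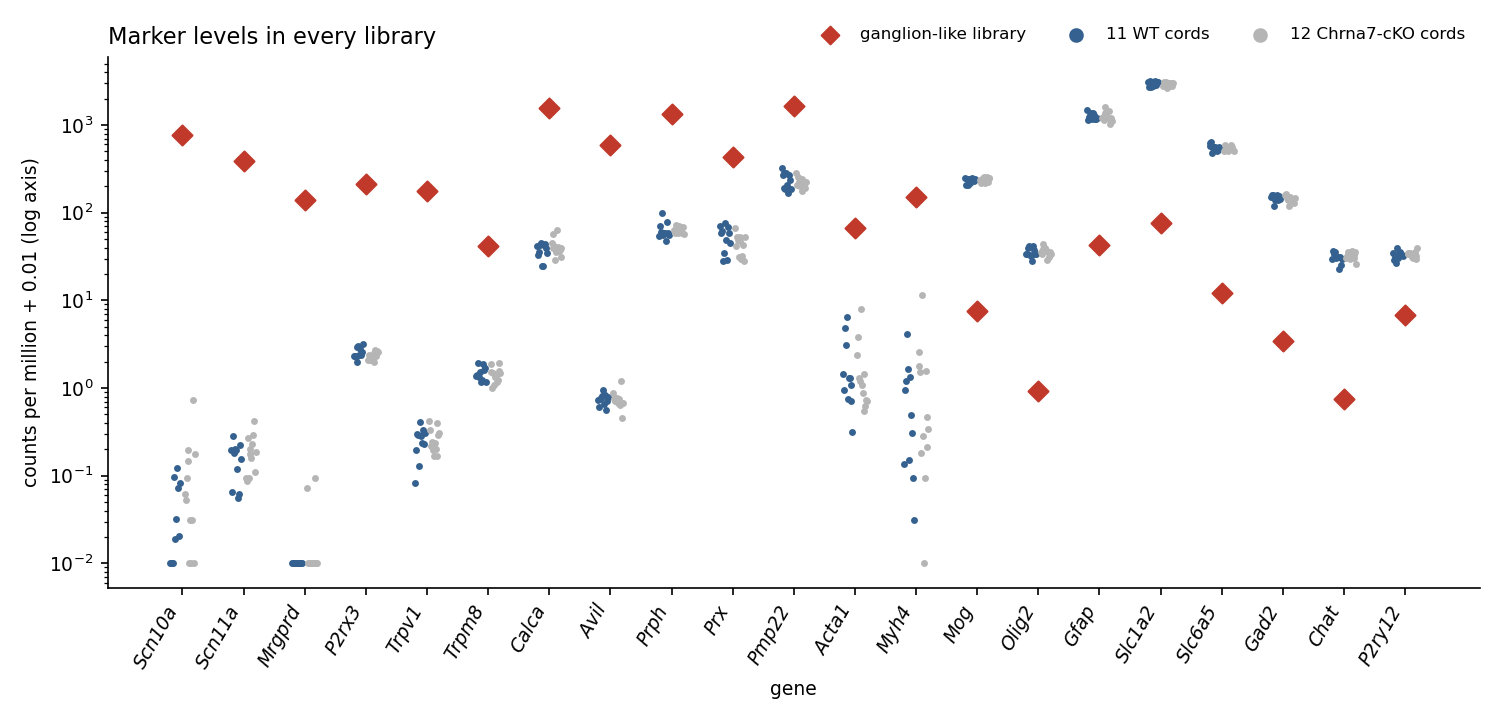
Level of 21 marker genes (x axis) in every library, as CPM + 0.01 on a log axis. Red diamonds are the ganglion-like library, blue points the 11 WT cords and grey points the 12 Chrna7-cKO cords; the diamond lies above all cords for the 13 genes from Scn10a to Myh4 and below all cords for the 8 from Mog to P2ry12.

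Of the genes shared by sensory neurons, 9 of 13 were called higher and 0 lower, with a median log2 ratio of 3.93. Prdm12, a regulator that nociceptors need in order to form, was counted through this library alone and is not among the 13. It had 100.3 CPM against 0.0113 to 0.235 CPM in the cords (median 0.0428), a log2 ratio of 11.20. Scn11a, the gene of Nav1.9, had 384 CPM against 0.0450 to 0.277 CPM. Prph, the intermediate filament peripherin, had 1319 CPM against 47.2 to 99.9 CPM, and Sncg, gamma-synuclein, 1986 CPM against 80.9 to 117 CPM. Per length, Sncg was the most abundant of all counted genes in this library, at 9286 TPM (transcripts per library scaled by exon length), against a cord median of 446 TPM. Calca stood in eighth place at 3656 TPM, and Pmp22 and Prph were also among the 20 highest. The 4 members not called were Stmn2, Uchl1, Gap43 and Slc17a6, which cord neurons also make. Slc17a6, a vesicular glutamate transporter, lay at 297 CPM, inside the cord range of 246 to 309 CPM.

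Peptidergic nociceptor genes were higher in 5 of 11 and lower in 0, with a median log2 ratio of 1.89. Trpv1, the capsaicin and heat channel, had 176 CPM against 0.0731 to 0.401 CPM (log2 ratio 9.34). Tac1, the precursor of substance P, had 312 CPM against 23.7 to 33.0 CPM (3.58). Calcb had 128 CPM against 9.25 to 15.1 CPM, and Adcyap1, the peptide PACAP, 123 CPM against 24.3 to 34.0 CPM. All of these lay above every cord. Oprk1, the kappa opioid receptor, went the other way at 5.68 CPM against 16.2 to 21.4 CPM, without passing the limit.

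Nonpeptidergic and itch genes were higher in 12 of 15 and lower in 1, with a median log2 ratio of 3.55. P2rx3, the ATP-gated channel of these cells, had 212 CPM against 1.98 to 3.20 CPM. Mrgpra3 and Nppb, markers of itch neurons, had 15.8 and 13.1 CPM against at most 0.217 and 0.135 CPM. Both were low in the cords, and 5 of the 20 genes of the list, Mrgprd among them, reached the minimum through this library alone. Il31ra and Osmr, which together form the receptor for the itch cytokine IL-31, had 37.0 and 70.6 CPM against at most 1.82 and 14.6 CPM. Sst, a peptide of itch neurons that inhibitory and excitatory dorsal horn neurons also make, was the member called lower, at 10.6 CPM against 47.9 to 64.3 CPM. The 14 others of the 15 lay above every cord, as did 29.3% of all genes with the minimum in the cords at any fold.

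Genes of cold-sensing and C low-threshold neurons were higher in 4 of 8 and lower in 0 (median log2 ratio 2.19). Trpm8, the menthol and cold channel, had 41.9 CPM against 1.16 to 1.91 CPM. Th, the enzyme tyrosine hydroxylase of C low-threshold mechanoreceptors, had 79.5 CPM against 1.91 to 4.42 CPM, and Fam19a4 had 36.5 CPM against 1.51 to 2.57 CPM. Th is also a gene of sympathetic neurons, another class of peripheral neuron. Their defining genes Dbh, Hand1 and Hand2 had 0 counts in this library, which allows up to 0.0317 CPM each, and 4 of the 11 sympathetic genes were not counted. The 6 with the minimum in the cords gave 1 higher, Th, and 2 lower, Ddc and Gata3. Slc6a2, another gene of this list, was counted through this library alone and was called higher. It lost that call when only genes of at least 1 CPM were kept.

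Genes of large myelinated neurons were for the most part not called. The 3 of 18 called higher were Runx3, Piezo2 and Ret, 0 were lower, and the median log2 ratio was 0.64. Piezo2, the touch channel, had 494 CPM against 6.59 to 10.9 CPM. Runx3, a factor of proprioceptors, had 8.23 CPM against 0.0210 to 0.254 CPM. Pvalb, a calcium buffer of proprioceptors, had 161 CPM against 90.6 to 125 CPM, and Nefh, the heavy neurofilament, 1698 CPM against 818 to 1323 CPM. Cord neurons also make Pvalb and neurofilaments, and both genes were abundant in the cords. Pvalb also stands in the skeletal muscle list, most genes of which were higher in this library, and the part of muscle in its level was not tested. The share of each neuron class in the library cannot be read from these ratios, since fewer cells of a type and less RNA per cell cannot be told apart in a bulk sample.

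**Figure D2:**
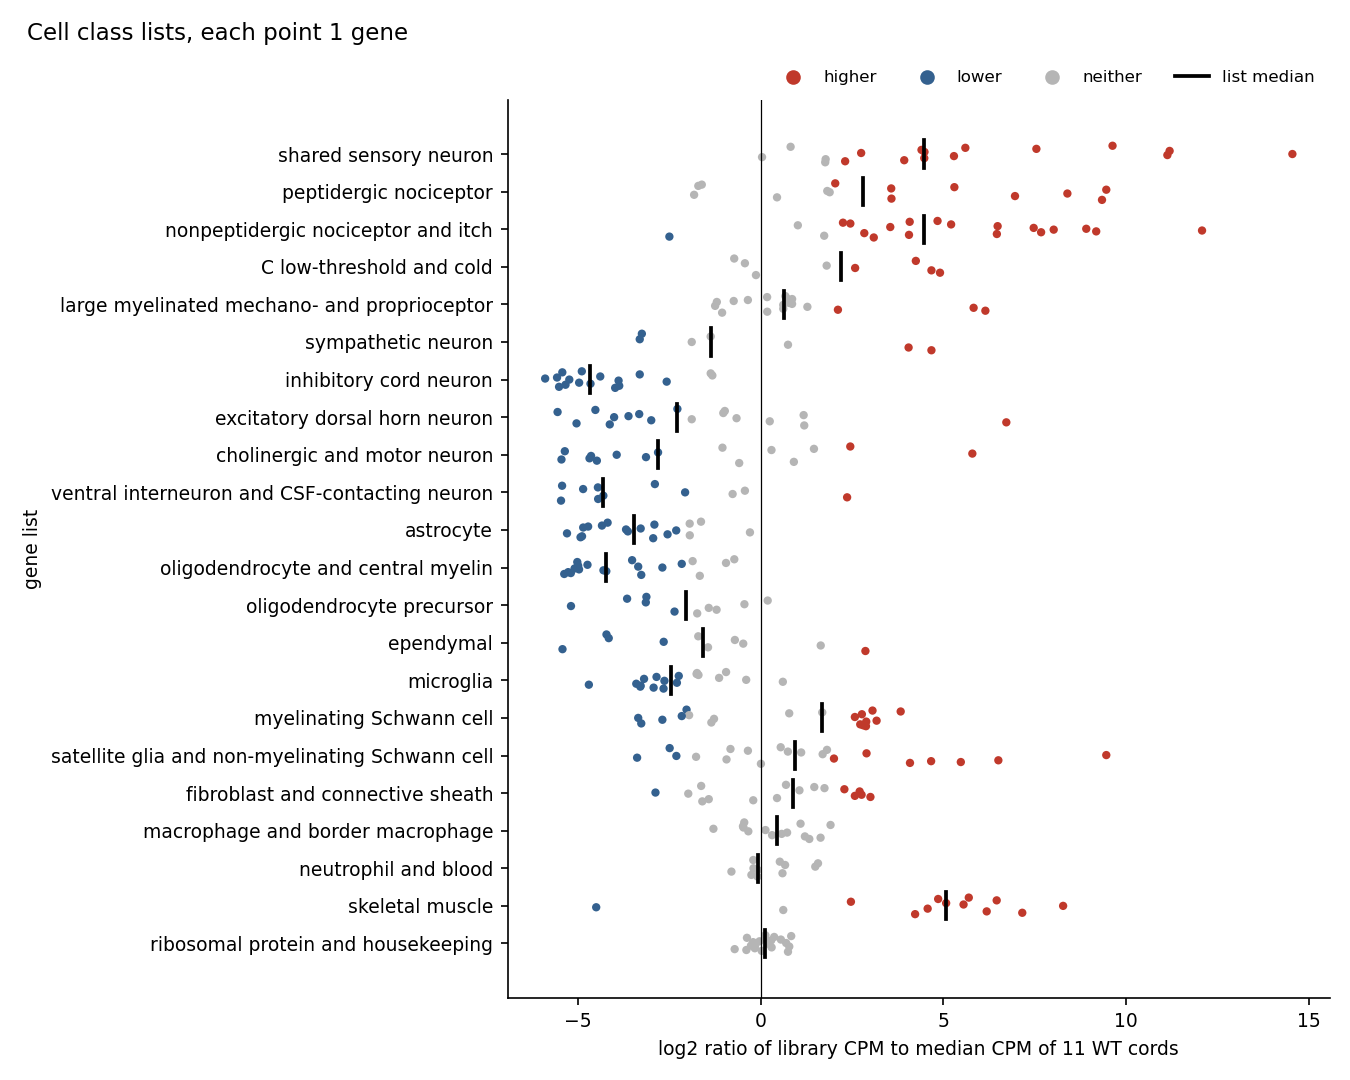
Log2 ratio of the library's CPM to the median of the 11 WT cords (x axis) for each counted gene of 22 lists (y axis), red if called higher, blue if called lower and grey if neither, with a black bar at the list's median. Points and bars take in the 4 genes that chose the library and genes counted through it alone, so some bars lie further right than the medians in the text; nociceptor and skeletal muscle lists lie to the right, cord neuron and central glia lists to the left, and housekeeping genes around 0.

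Genes of the cord's inhibitory interneurons had a median log2 ratio of -4.66 with the floor of 3 counts, and of -3.50 with 0.5 CPM added to each level. Of 18 genes, 17 were counted, 15 were lower, 0 were higher and all 17 lay below every cord, as did 40.3% of all genes with the minimum in the cords at any fold. Slc6a5, the glycine transporter of glycinergic terminals, had 12.1 CPM against 484 to 637 CPM (median 555), or 2.17% of that median. Gad2, an enzyme of GABA synthesis, had 3.44 CPM against 119 to 160 CPM, and Slc32a1, the vesicular carrier of GABA and glycine, 2.30 CPM against 87.3 to 115 CPM. Gbx1 and Gata2 were not called, at 2.34 and 2.23 CPM. Ptf1a was near 0 on both sides.

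Motor and cholinergic genes split. Chat, which makes acetylcholine, had 0.749 CPM against 22.7 to 36.3 CPM, and Slc18a3, its vesicular carrier, 0.823 CPM against 29.9 to 55.0 CPM. Mnx1, a motor neuron factor, had 0.116 CPM against 2.30 to 4.37 CPM. Of 15 genes, 8 were lower and 2 higher, with a median log2 ratio of -2.81 (-1.89 with 0.5 CPM added). The 2 higher were Ahnak2 and Isl2, the second a homeodomain factor of both motor and sensory neurons, at 113 CPM against 1.42 to 3.66 CPM. Ventral interneuron and fluid-contacting neuron genes were lower in 8 of 11 and higher in 1, Shox2. Their median log2 ratio was -4.31, but -1.20 with 0.5 CPM added, and the list summed to 30.02 CPM against 50.1 to 61.2 CPM.

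Excitatory dorsal horn genes were lower in 9 of 17 and higher in 1 (median log2 ratio -2.28). The peptides Grp and Tac2 had 0.148 and 0.781 CPM against at least 4.38 and 15.4 CPM in a cord, and Tacr1, the substance P receptor, had 1.18 CPM against 19.7 to 24.7 CPM. The exception was Slc17a7, a vesicular glutamate transporter that ganglion neurons also make, at 132 CPM against 0.483 to 3.76 CPM. Substance P thus had its precursor Tac1 above every cord and its receptor Tacr1 below every cord in the same library.

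Astrocyte genes were lower in 14 of 18 and higher in 0 (median log2 ratio -3.47), and all 18 lay below every cord. Gfap, the astrocyte filament, had 42.5 CPM against 1139 to 1470 CPM, and Slc1a2, the main glutamate transporter of astrocytes, 77.2 CPM against 2721 to 3176 CPM (median 3059). S100b, which Schwann cells also make, had 862 CPM against 896 to 1149.6 CPM. Genes of oligodendrocytes and central myelin were lower in 15 of 19 and higher in 0 (median -4.23, or -3.65 with 0.5 CPM added). Mog, a central myelin protein, had 7.61 CPM against 207 to 252 CPM, and Olig2, the lineage factor, 0.918 CPM against 28.3 to 42.1 CPM. Precursor genes were lower in 5 of 10 and higher in 0, with Neu4 lowest at 0.359 CPM against a cord median of 13.2 CPM. Ependymal genes were lower in 4 of 10 and higher in 1, Vim, which many non-neuronal cells express.

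Among immune cells, microglial genes were lower in 11 of 18 and higher in 0 (median log2 ratio -2.47). Sall1, a factor that sets microglia apart from other macrophages, had 1.98 CPM against 49.3 to 57.4 CPM, the lowest ratio of the list at -4.71. P2ry12 had 6.73 CPM against 26.9 to 39.4 CPM. By contrast 0 of 14 genes of other macrophages were called in either direction (median 0.44). At any fold, 6 of the 14 lay above every cord and 3 below every cord. Over all genes with the minimum in the cords, 29.3% lay above every cord and 40.3% below. Among the 6 were Ccr2 at 5.97 CPM against 0.860 to 3.23 CPM and Mrc1 at 12.3 CPM against 3.52 to 7.11 CPM. Lyz2 lay at 48.5 CPM, inside the cord range of 28.7 to 60.3 CPM. Neutrophil and blood genes had 0 of 10 and lymphocyte genes 0 of 11 called.

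Genes of peripheral glia split. Of 19 genes of myelinating Schwann cells, 9 were higher and 5 lower (median log2 ratio 1.68). Pmp22, a protein of compact peripheral myelin, had 1647 CPM against 168 to 320 CPM and Prx, periaxin, 432 CPM against 28.1 to 77.1 CPM. Egr2, the factor that drives this myelin, had 21.3 CPM against 1.24 to 4.96 CPM, and Dhh, a signal from Schwann cells to the nerve sheath, 41.9 CPM against 1.68 to 4.22 CPM. The 5 lower included Mbp, Mag and Gjb1, all of them also made by oligodendrocytes, and Adamtsl1. Mbp, for instance, had 1975 CPM against 11803 to 14126.5 CPM. Prx, which Schwann cells of nerve roots also make, was present in every cord. Of 10 Schwann cell transcription factors 1, Egr2, was higher and 0 lower.

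Satellite glia and non-myelinating Schwann cell genes were higher in 6 of 19 and lower in 3 (median log2 ratio 0.74). Fabp7, a lipid carrier of satellite glia, had 314 CPM against 31.3 to 54.6 CPM. Ngfr, the low-affinity neurotrophin receptor of both sensory neurons and these glia, had 459 CPM against 3.12 to 6.22 CPM. Glul and Kcnj10, which satellite glia share with astrocytes, were lower, at 321 and 82.3 CPM against at least 1445 and 764 CPM. Sox10, a factor of all myelinating glia, lay inside the cord range, at 90.7 CPM against 77.1 to 106 CPM.

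Skeletal muscle genes were higher in 11 of 13 counted and lower in 1 (median log2 ratio 5.08, or 4.29 with 0.5 CPM added). The list summed to 727 CPM against 101.3 to 149 CPM. Most of the sum in the cords was Pvalb, a member that cord neurons also make, at 90.6 to 125 CPM there and 161 CPM here. Myh4, a fast myosin, had 150 CPM against 0.0210 to 4.14 CPM, and Acta1, skeletal actin, 66.5 CPM against 0.304 to 6.53 CPM. Myh7, the slow myosin, was the member called lower, at 0.116 CPM against 2.21 to 4.33 CPM. These muscle transcripts were high in the same single library as the sensory neuron genes, and their part in those results was not tested. Sheath fibroblast genes were higher in 5 of 16 and lower in 1 (median 0.87), with Dcn, decorin, at 592 CPM against 57.8 to 120 CPM. Barrier endothelium was lower in 3 of 11 and higher in 0 (median -0.93), Slco1c1 being lowest at 5.36 CPM against 57.2 to 73.1 CPM. Other endothelium had 1 of 11 higher, Aqp1, a water channel that nociceptors also make, and 0 lower. Adipocyte genes were higher in 1 of 4, and bone and cartilage genes in 2 of 8 with 3 lower. Of 20 ribosomal protein and housekeeping genes 0 were called in either direction (median 0.12).

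Sodium channel alpha genes lay on both sides of the cords. Of 9 alpha subunit genes besides Scn10a, 4 were higher, Scn11a, Scn9a, Scn7a and Scn4a, and 0 were lower. Scn9a, the gene of Nav1.7, had 579 CPM against 12.1 to 17.8 CPM, and Scn7a, a sodium sensor made by glia and neurons, 758 CPM against 8.36 to 22.3 CPM. Scn1a, Scn2a, Scn3a and Scn8a, the central subunits, all lay below every cord with log2 ratios of -1.52 to -0.98. Per length, Scn7a was at 411 TPM, Scn10a at 386 TPM, Scn11a at 258 TPM and Scn9a at 181 TPM. Scn4a was far lower, at 5.73 TPM against at most 0.117 TPM in a cord. Muscle transcripts were also high in this library, and their part in the Scn4a level was not tested. With Scn10a set aside, Scn9a and Scn11a together made up 43.5% of the TPM of the 9 other alpha genes here and 1.02 to 1.56% in the cords. Of the 4 beta subunit genes, 0 were called in either direction.

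Channels that sense heat, cold, acid, ATP and pressure showed a similar split. Of 16 TRP genes 6 were higher and 1 lower, and Trpa1, the irritant channel, had 71.4 CPM against 0.459 to 1.14 CPM. Trpc5 was the lower one. Of 18 acid, ATP and pressure channel genes 5 were higher and 1 lower, with Asic3, an acid sensor of muscle afferents, at 110 CPM against 0.658 to 1.94 CPM and Asic4 the lower one at 0.380 CPM against 3.65 to 5.40 CPM. Among 46 potassium and pacemaker channel genes 8 were higher and 7 lower. Kcnk18, the channel TRESK, counted through this library alone and not among the 46, had 7.99 CPM against at most 0.104 CPM. Kcnmb1 had 53.2 CPM against 0.944 to 1.73 CPM and Kcnd1 209.8 CPM against 25.3 to 29.7 CPM. Its relative Kcnd2 went the other way, at 4.38 CPM against 68.2 to 85.4 CPM, as did Kcnk9, at 14.8 CPM against 229 to 299 CPM. Among 20 calcium channel genes 2 were higher and 7 lower. Cacna2d1, the gabapentin target, had 346 CPM against 68.4 to 113 CPM and was not called.

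**Figure D3:**
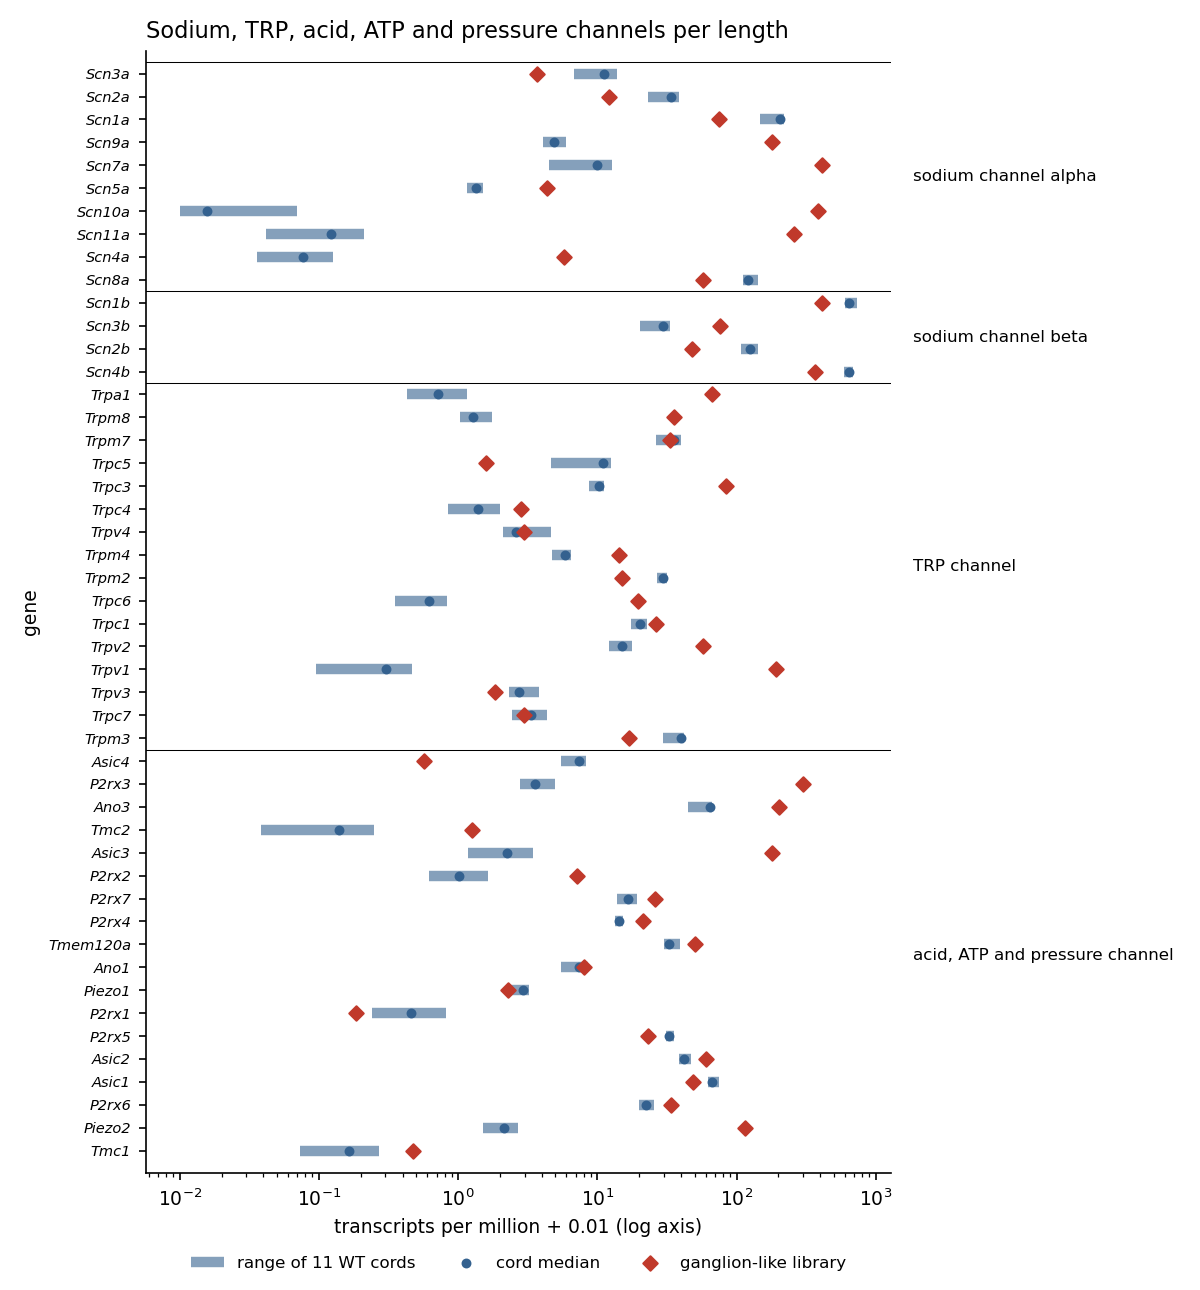
TPM + 0.01 on a log axis (x axis) of sodium, TRP, acid, ATP and pressure channel genes (y axis) in the ganglion-like library (red diamonds), with the range (blue bars) and median (blue points) of the 11 WT cords. Scn10a, Scn11a, Trpv1 and P2rx3 lie far to the right of their cords and Scn1a, Scn2a, Trpc5 and Asic4 to the left.

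Of 13 genes for neurotrophic factor receptors 5 were higher and 0 lower. At any fold, 9 of the 13 lay above every cord and 4 below. Over all genes with the minimum in the cords, these shares were 29.3% above and 40.3% below. Gfra3, the artemin receptor, counted through this library alone, had 37.7 CPM against 0 to 0.192 CPM, and Ret, the signalling partner of the GFRA receptors, 517 CPM against 99.7 to 136 CPM. Ntrk2, the BDNF receptor that astrocytes also make, lay below every cord at 199 CPM against 413 to 511 CPM. In the Mrgpr family, 16 of 18 genes were counted, 12 of them through this library alone. Of the 4 with the minimum in the cords 2 were higher and 0 lower. Per length, of the listed genes Mrgprd, which chose the library, was at 176 TPM, Mrgprx1 at 62.9, Mrgprb4 at 50.4 and Mrgpra3 at 48.7 TPM in this library, and Mrgprx3-ps, outside the list, was at 134 TPM. Mrgpre, which was not called, was present in the cords too, with a median of 12.5 CPM against 23.05 CPM here. Several Mrgpr genes are near-identical in sequence, so reads shared between them went uncounted and their levels are uncertain.

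Receptors for neuropeptides had 18 of 45 genes lower and 6 higher. Prokr1, a prokineticin receptor, was among the higher at 28.04 CPM against 0.360 to 0.968 CPM. Oprm1, the mu opioid receptor, had 9.64 CPM against 1.01 to 4.44 CPM, above every cord but not called. Of 48 amine, purine and lipid receptor genes 13 were higher and 10 lower. Htr3a, a subunit of the serotonin-gated channel, had 169 CPM against 4.49 to 8.09 CPM, and Ptgir, the prostacyclin receptor, 53.6 CPM against 0.0854 to 0.551 CPM. Htr2c, a serotonin receptor of central neurons, had 3.68 CPM against 131 to 174 CPM.

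Among receptors for the fast transmitters of the cord, those for GABA and glycine were lower in 10 of 22 genes and higher in 0. Glra1, the main adult glycine receptor subunit, had 1.22 CPM against 39.1 to 109 CPM. Of 25 glutamate receptor genes 12 were lower and 1 higher. The higher one was Grik1, a kainate receptor subunit of nociceptors, at 278 CPM against 15.7 to 19.6 CPM. Grin2b, an NMDA receptor subunit, had 1.37 CPM against 60.6 to 87.1 CPM. Nicotinic and muscarinic genes were higher in 4 and lower in 4 of 17. Chrna6 had 74.2 CPM against 0.299 to 1.21 CPM, and Chrna7, the gene targeted in the knockout, 48.1 CPM against 9.38 to 15.9 CPM, above every cord but not called. Of 28 cytokine and Toll-like receptor genes 5 were higher and 0 lower.

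Genes of peptide, neurotrophin and cytokine ligands fell on both sides. Of 31 genes, 7 were higher and 12 lower. Nmb, the itch and pain peptide neuromedin B, had 79.4 CPM against 1.23 to 2.07 CPM. Bdnf, the neurotrophin that sensory neurons carry into the cord, had 30.3 CPM against 7.39 to 10.2 CPM and was not called. Penk and Pdyn, the opioid precursors of dorsal horn neurons, had 8.63 and 1.41 CPM against at least 84.0 and 10.0 CPM. Of the 22 injury and regeneration genes 2 were higher, Hspb1 and Atf3, and 6 lower. Atf3, a factor that injured sensory neurons switch on, had 7.38 CPM against 0.856 to 2.15 CPM. The series holds no other library of this profile, so tissue and paclitaxel cannot be told apart for this level.

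Of 30 transcription factors of sensory neurons 17 were higher and 1 lower (median log2 ratio 2.36). Runx1, the factor of nonpeptidergic nociceptors, had 91.6 CPM against 1.37 to 2.79 CPM, Isl1 128 CPM against 2.07 to 3.56 CPM and Pou4f1 152 CPM against 5.92 to 8.08 CPM. Hmx1, counted through this library alone and not among the 30, had 1.53 CPM and 0 counts in every cord, at least 47.8-fold higher than 3 counts in a cord. Of 49 factors of cord neurons and central glia 32 were lower and 1, Myt1, higher (median -3.33, or -1.99 with 0.5 CPM added). Lbx1, a dorsal horn factor, had 0.179 CPM against 7.17 to 12.9 CPM, and Nkx2-2, a factor of ventral progenitors and oligodendrocytes, 0.0739 CPM against 6.88 to 14.3 CPM, a log2 ratio of -6.89.

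Hox genes, which mark position along the body axis, were counted in all 4 clusters, those of paralog group 10 among them. Levels of the groups between 10 and 13 are not reported here by name, so group 10 is not given as a limit of expression. Hoxa9 and Hoxa10 had 52.7 and 34.5 CPM against 61.1 to 75.0 and 42.8 to 55.8 CPM, and Hoxd10 8.13 CPM against a cord median of 24.96 CPM. Hoxc10 and Hoxb8 were lower, at 8.36 and 9.63 CPM against at least 44.5 and 84.7 CPM. Group 13 genes lay at or near 0 on both sides. Over the 33 counted Hox genes, 5 were lower and 1 higher, against 9.11% lower and 4.19% higher of all genes with the minimum in the cords. The medians of the 4 clusters were log2 ratios of -1.52 to -1.07. The Hox gene called higher was Hoxd1, which nociceptors of mice express, at 12.7 CPM against 0.975 to 2.43 CPM.

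**Figure D4:**
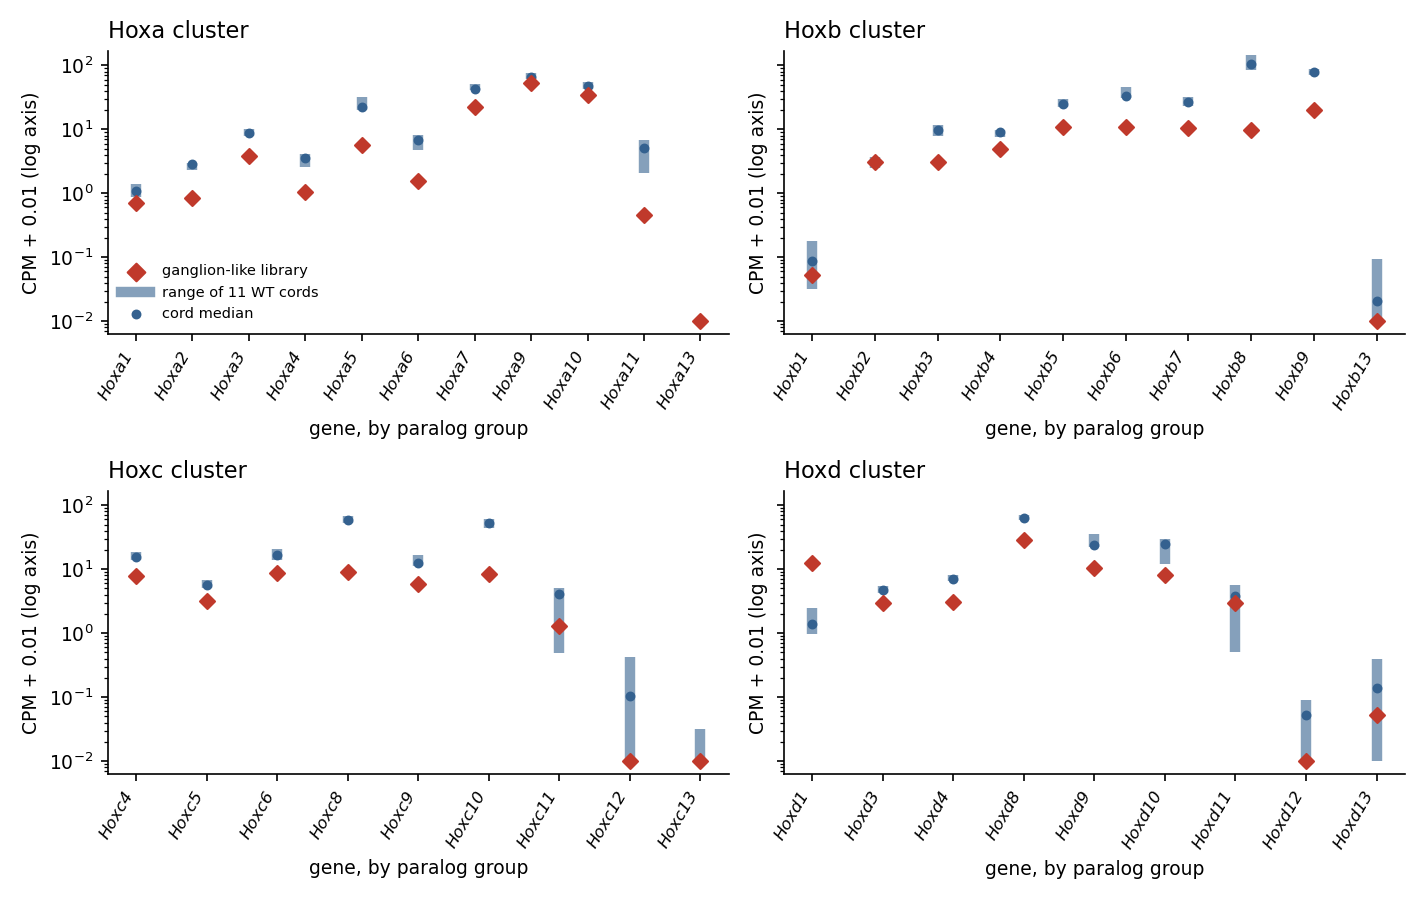
CPM + 0.01 on a log axis (y axis) of the Hox genes of each cluster in order of paralog group (x axis), for the ganglion-like library (red diamonds) and the range and median of the 11 WT cords (blue bars and points). The library lies below the cords for most genes of groups 3 to 10, and above them for Hoxd1; Hoxa9 and Hoxa10 lie just under the bars.

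Abundant cord transcripts did not reach 0 in this library. Among 10727 genes with at least 10 CPM as cord median, outside Xist and the Y chromosome, the lowest was Gpr101 at 1.6% of that median. Only 4 genes lay under 2%, 32 lay from 2 to 3% and 87 from 3 to 5%. Examples from 2 to 3%, taken for their place in that range, were Slc6a5 of glycinergic neurons (2.17%), Gad2 of GABA neurons (2.31%), Chat of motor neurons (2.42%), Opalin of oligodendrocytes (2.40%), Slc1a2 of astrocytes (2.52%) and Olig2 of the oligodendrocyte lineage (2.72%).

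Y chromosome transcripts were also present in this library, which is labelled female. Xist, the RNA of the inactive X chromosome, had 688 CPM, within the 667 to 1020 CPM of the 11 other females. Ddx3y, Eif2s3y, Kdm5d and Uty together had 290 counts, against 0 to 53 (median 6) in the other females, which is 1.15% of the level in the 12 males (95% exact interval 1.02 to 1.29%, counting error only). Ddx3y alone had 1.28 CPM against at most 0.247 CPM in another female and 118 to 163 CPM in males. The part of these reads in the low shares above was not tested.

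**Figure D5:**
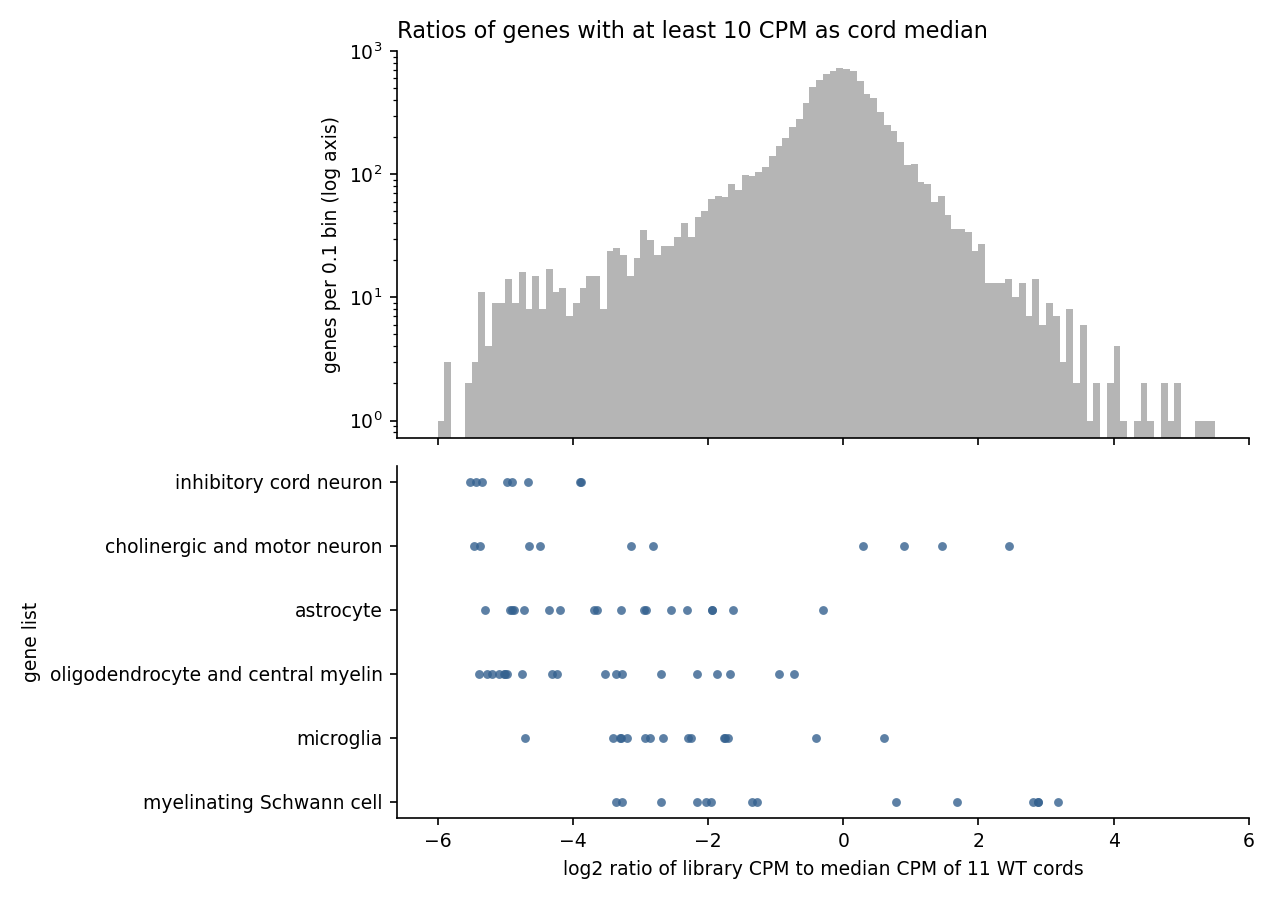
Top, number of genes per 0.1 of log2 ratio (log axis) among the 10727 genes with at least 10 CPM as cord median; bottom, the members of 6 lists on the same x axis, the log2 ratio of the library's CPM to the cord median. The left edge falls between -6 and -5, and inhibitory, motor, astrocyte and oligodendrocyte genes all reach it, while microglial genes stop at -4.71.

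The 8 genes with at least 10 CPM in this library and at most 3 counts as median of the WT cords were Scn10a, Tmem233, Mrgprd, Gm13425, Mrgprx3-ps, Tlx2, Mrgprx1 and Mrgprb4. Their low level in the WT cords is what chose them, and other ganglion genes, Prph and Sncg among them, were well present there. Summed, the 8 had 1568 CPM here. The Chrna7-cKO cords, which the choice did not use, held 0.00473 to 0.0982% of that, the highest being Chrna7-cKO male vehicle rep2 with 148 counts and the next 0.0233%. In that cord Scn10a lay at 0.728 CPM (70 counts).

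This library moved means that it enters. In its labelled group of 3, Gfap had 1314, 1160.4 and 42.5 CPM and Chrna7 15.3, 14.3 and 48.1 CPM in replicates 1, 2 and 3. Scn10a over the 6 WT paclitaxel libraries of both sexes averaged 129 ± 315 CPM (SD), and 0.0264 ± 0.0484 CPM over the 5 without it. Gfap averaged 1019 ± 484 CPM with it and 1214 ± 79.7 CPM without it (n = 5), against 1305 ± 122 CPM in the 6 WT vehicle libraries. Chrna7 averaged 18.7 ± 14.6 CPM with it and 12.8 ± 2.26 CPM without it, against 14.2 ± 1.28 CPM under vehicle. For Chrna7 the order of the 2 treatments turned with this library. No test was run on these means.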

How the data were processed

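Bulk RNA-seq of lumbar spinal cord was deposited as 1 table of raw counts per gene name for 24 libraries, with no normalization by the authors. The submitters' processing notes name STAR as aligner, with no version in those notes, and featureCounts 1.6.2 as counter. Exons of the Ensembl GRCm38 release 96 annotation were counted without strand and without multi-mapping reads or reads on more than 1 gene, per the file headers, so near-identical, overlapping and antisense genes are uncertain. The header gives no option for read pairs, so mates may have been counted separately, which would make counting intervals too narrow. The exon length of each gene stands in the deposited table and served for TPM.

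From these counts CPM, ratios, ranges and TPM were computed in Python 3.11.15 with pandas 2.3.3, and scaling factors with edgeR 4.0.16 and DESeq2 1.42.0. The comparison was checked on simulated counts with known changes. No test was run, because 1 library stands on one side, and a p-value would have no replicate behind it. The labels give 1 mouse per library. Counting intervals are exact at 95% and cover counting error only, and the precision is limited by 94765907 counts in the library. The 51 lists held 818 genes of the table. A gene could stand in several lists, and members and lists were chosen with earlier results of these data known. Named genes are the defining members of a list, up to 8 with the largest and 4 with the smallest ratios and those that go against the rest, plus the 20 largest and 20 smallest ratios over all genes and the 20 highest in TPM, of which only part is printed. Some genes of the lists enter the counts and medians but are not reported here by name. List counts in the text leave out the 4 genes that chose the library and genes that reach the minimum through it alone, a choice made after seeing the data. Alternatives changed the scaling, the reference cords, the summary of the cords, the filter, the pseudocount and the fold. Promoters came from RefSeq (GRCm38.p6).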

Additional observations from a re-analysis of the deposited data

How the results depend on the processing

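The counts of genes depended mainly on the fold and on how low levels were treated. With a limit of 2 times, 3824 genes were higher and 4321 lower, and with 16 times 376 and 407. With 0.5 CPM added to each level the counts were 705 and 890, and with only genes of at least 1 CPM 983 and 1263. These settings remove or shrink genes of low level by construction. Leaving out each cord in turn gave 1692 to 1734 higher and 2011 to 2045 lower genes. The median log2 ratio of shared sensory neuron genes, over all 17 members with Scn10a and Avil among them, was 4.48, and it was 4.54 with TMM factors, 4.56 with DESeq2 size factors, 4.41 with totals that leave out the 50 most abundant genes, 4.41 against the 12 knockout cords, 4.53 against the 2 other libraries of its group, 4.42 against the mean of the cords, 4.31 with 0.5 CPM added and 4.44 to 4.48 without each cord. For inhibitory cord neurons it was -4.56 with TMM, -4.53 with DESeq2, -3.50 with 0.5 CPM added, -4.53 with no filter beyond 1 count, -4.78 with genes of at least 1 CPM and -4.68 to -4.66 without each cord. For astrocytes it was -3.37 with TMM, -3.35 with DESeq2, -3.53 without the abundant genes, -3.51 against the 2 libraries of its group and -3.49 to -3.46 without each cord. For myelinating Schwann cells it was 1.64 to 1.69 without each cord. Against the 5 WT female cords, a reference chosen after seeing the data, the shared sensory neuron list gave 4.58. The median of the sex chromosome list turned to 3.95 against the 2 libraries of its group and to 3.98 against the 5 WT females, since the 11 cords hold 6 males. The median of all counted genes ran from -0.11 to 0.06 over the scalings. Of 356 list genes called, 299 kept their call with 0.5 CPM added and 334 with at least 1 CPM; under each other setting apart from the changed folds at least 349 did, and 0 changed direction. Counting only genes with the minimum in the cords, a choice made after seeing the data, left 930 higher and 2020 lower genes, and the shared sensory neuron median, without Scn10a and Avil, fell to 3.93. No paired analysis was possible because no test was run and the library stands alone on its side.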

Other observations

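Genes outside the lists also set this library apart. Among genes with at least 10 CPM on either side and more than 3 counts as cord median, Tmem45b had the largest ratio. It had 139 CPM against a cord median of 0.0446 CPM (log2 ratio 11.60). Tmem45b was counted through this library alone, with a median of 4 counts in the cords, so it could hardly lie anywhere but above them. Pirt, a membrane protein that regulates TRPV1, had 1094 CPM against 1.47 CPM, and Fxyd2, a regulator of the sodium pump, 508 CPM against 0.890 CPM. Trarg1, known for its role in glucose transporter traffic in fat and muscle, had 640 CPM against 1.16 CPM, and Ppp1r1c, an inhibitor of a protein phosphatase, 523 CPM against 1.58 CPM. Tmem233, a membrane protein also counted through this library alone, had 476 CPM against a median of 2 counts in the cords. At the other end, Gm42756 had 0.274 CPM against 16.2 CPM and Fgf10, a growth factor, 0.369 CPM against 17.6 CPM. Xist and the Y chromosome genes Ddx3y, Eif2s3y, Kdm5d and Uty also reach the 20 largest or smallest ratios, since 6 of the 11 cords are male. All values are those of 1 library, with no test.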
